A study of Rhagoletis pomonella with 50 samples.

Results

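Of 29399 features measured in the pupal central nervous system (CNS) of the fly Rhagoletis pomonella, 31 rose early in the cold when the values of both hosts were averaged. A feature belonged to the early risers if its mean level was at least 2 CPM (counts per 1000000 counts of a library), if its log2 group mean rose by at least 0.8 from 2 to 6 months in apple and in hawthorn, and if between 0.7 and 1.3 of that rise, averaged over the hosts, was already reached at 4 months. Of 9579 features with at least 2 CPM, 362 rose by this much in each host, and 31 of them (8.56%) were early risers. The other 331, with a share under 0.7 at 4 months, are called later risers here, and 0 features had a share over 1.3. The members were chosen by their measured levels at 2, 4 and 6 months, so the values of those months are given as a description with no test, and tests of levels compare only 3 and 5 months. The limit of 2 CPM is a mean over all months, so the libraries of 3 and 5 months entered the rule through that limit alone.

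Larvae came out of infested apple or hawthorn fruit from 1 locality, pupated for 10 days at 24 °C with 14 h of light and 10 h of dark, and were then kept at 3.5 °C and 95% relative humidity. The 10 groups are the 2 hosts at 2, 3, 4, 5 and 6 months of cold, each with 5 libraries made from pools of 10 dissected CNS, and no library comes from pupae that were not chilled. Stranded mRNA libraries were read as 100 bp single ends, with library totals of 8718271 to 30540959 expected counts. Replicates 2 and 4 of hawthorn at 4 months stood apart from the other 48 libraries and are left out below, which leaves 3 libraries in that group. Their slope of log2 level on log2 transcript length was -0.270 and -0.272, against -0.133 to 0.157 elsewhere. Beyond the pooling, the labels do not say how separate the pools of a group were, so p-values measure the spread between these libraries. The files give numbered features with no gene names, so the dissected tissue could not be checked against its markers, and no member can be assigned a function.

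Diapause is a programmed dormancy in which development halts and metabolism is low, and in many insects of cold winters a long chill precedes its end. The brain takes part in ending it, since it controls the release of hormones that restart development. R. pomonella overwinters as a pupa, and its apple and hawthorn populations are known to differ in the timing of diapause. In pooled tissue, fewer cells of a type and less RNA per cell cannot be told apart.

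Among the 31 early risers, the rise from 2 to 6 months had a median of 1.03 (log2 scale, range 0.82 to 1.82) in apple and 1.21 (0.81 to 1.84) in hawthorn, and was larger in hawthorn for 20 of them. The share of the rise reached at 4 months had a median of 0.76 over the averaged hosts and lay between 0.70 and 0.91. Taken host by host, the early timing was less uniform than the label says: 22 members had a share between 0.7 and 1.3 in apple, 18 in hawthorn and 11 in each of the hosts. At the lower limit, gene2755 (0.7006) and gene4619 (0.7023) were just inside, and gene13459 (0.6993) and gene6147 (0.6982) just outside. At the limit on the rise, gene310 (0.81) was just inside and gene12899 (0.80, under 0.8 before rounding) just outside. At the limit on level, gene17029 (2.24 CPM) was just inside and gene9270 (1.92 CPM) just outside.

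The months that the rule did not use show how the members got to 4 months and what followed. At 3 months the median share was 0.38, and it ran from -0.18 in gene17029 to 0.81 in gene3778. Of the 31 members, 9 had reached at least 0.5 of their rise at 3 months and 9 less than 0.25. At 5 months the median share was 0.86, with 5 members above their 6-month level and 9 below their 4-month share. The later risers had median shares of 0.32 at 3 months and 0.75 at 5 months. These shares take their end points from the months the rule used and depend on scaling. In apple, any feature's change from 4 to 5 months was 0.22 log2 units lower on the file total than on TMM-scaled totals (trimmed mean of M values), and its change from 2 to 3 months 0.20 lower. In apple, 19 members were lower at 5 than at 4 months on the file total but 10 on the TMM scale, and in hawthorn 7 on either scale. On the TMM scale the median share was 0.47 at 3 months, 0.74 at 4 months and 0.96 at 5 months. By host, the medians on the file total were 0.33 in apple and 0.40 in hawthorn at 3 months, and 0.78 and 0.92 at 5 months. On the TMM scale they were 0.49 and 0.42 at 3 months, and 0.998 and 0.895 at 5 months, so the order of the hosts turns with the scaling.

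**Figure D1:**
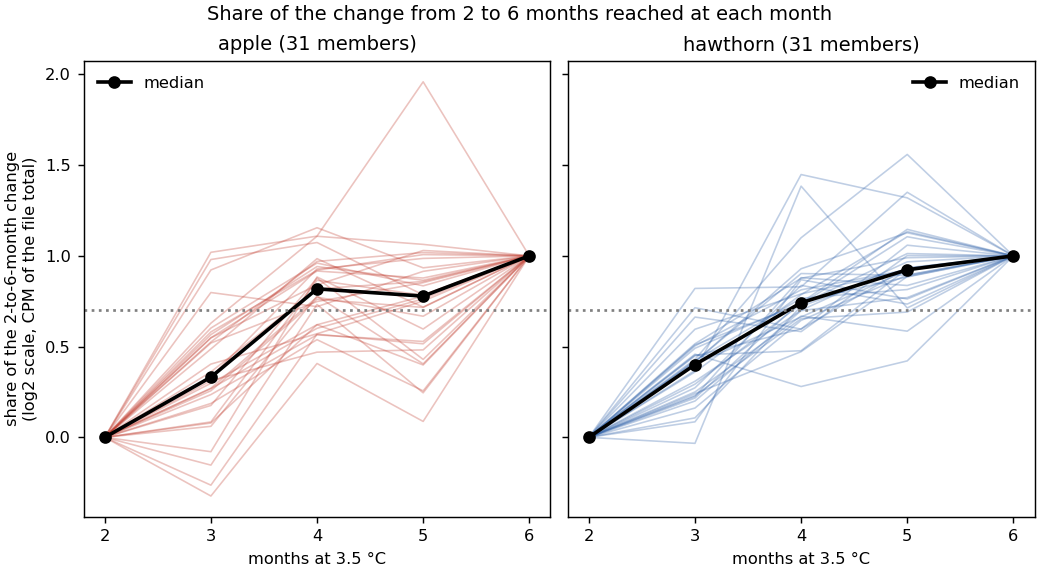
Share of each member's log2 change from 2 to 6 months reached at each month (CPM of the file total), apple on the left and hawthorn on the right. Thin lines are the 31 members, the black line is their median, and the dotted line marks 0.7; the months 2, 4 and 6 chose the members. The medians at 3 months were 0.33 in apple and 0.40 in hawthorn, and those at 5 months 0.78 and 0.92; on the TMM scale the host order turns at both months.

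The mean level of the 31 members in a library, on the log2 scale relative to all 48 libraries, is given with all genes scaled by TMM. This mean level rose at each monthly step in both hosts, whereas on the file total 19 members were lower in apple at 5 than at 4 months. In apple it was -0.87 ± 0.23 (SD, n = 5) at 2 months, -0.26 ± 0.10 at 3 months, 0.04 ± 0.11 at 4 months, 0.21 ± 0.18 at 5 months and 0.23 ± 0.19 at 6 months. In hawthorn it was -0.55 ± 0.11 (n = 5), -0.07 ± 0.08 (n = 5), 0.27 ± 0.13 (n = 3), 0.49 ± 0.11 (n = 5) and 0.61 ± 0.10 (n = 5) at the same months. Within each host, all libraries of 5 months lay above all libraries of 3 months. The highest 3-month libraries were at -0.10 in apple and 0.02 in hawthorn, the lowest 5-month libraries at 0.00 and 0.34.

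**Figure D2:**
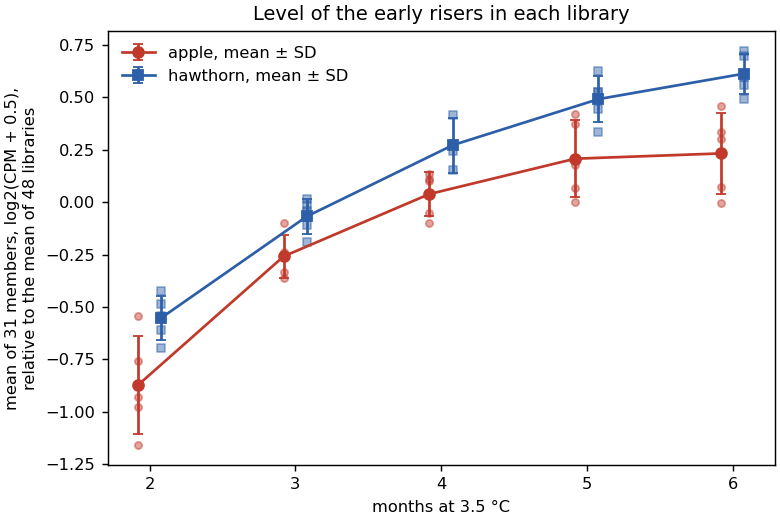
Mean log2(CPM + 0.5) of the 31 early risers in each library, relative to the mean of 48 libraries, against months at 3.5 °C. Points are libraries, and joined symbols with bars are group means ± SD. On this TMM scale the steps are largest from 2 to 3 months and small from 5 to 6 months. The hawthorn mean also lies above the apple mean in every month on this scale. The step sizes depend on the scaling. On the file total, the median share in apple was 0.33 at 3 months, 0.82 at 4 months and 0.78 at 5 months. There, 17 of 31 members were lower in apple than in hawthorn at 2 months. Values at 2, 4 and 6 months chose the members.

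The members, like the later risers, were mostly of low to middling abundance. Their mean level had a median of 7.47 CPM, and 18 of the 31 were under 10 CPM. The later risers had a median of 8.04 CPM, with 191 of 331 under 10 CPM. Per length, 20 members were under 5 TPM (transcripts per 1000000 transcripts) and 7 at 10 TPM or more. Of the 331 later risers, 202 were under 5 TPM and 68 at 10 TPM or more. The most abundant member was gene1175, a short transcript of 516 bp at 5825 TPM, followed by gene16088 (1681 bp, 397 TPM). Members had a median transcript length of 2281 bp, against 1843 bp for tested features with at least 2 CPM, 1628 bp for all 14342 features tested and 2688 bp for the later risers. Longer than the median tested feature were 24 of the 31 members and 246 of the 331 later risers. The same held for 5443 of the 9579 features with at least 2 CPM. Of the members, 32.3% had more than 1 transcript, against 32.7% of tested features with at least 2 CPM. The spread between libraries of a group (median SD of log2 CPM) was 0.290 for members and 0.283 for the later risers. It was 0.289 for all features tested and 0.247 for tested features with at least 2 CPM. Expected counts of 8 members and of 135 of the 331 later risers were not whole in some library. This happens where reads are shared with another feature, and the levels of those 8 members are uncertain. The 8 include gene18870, gene7220, gene1175 and gene17029.

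From 3 to 5 months, a contrast the rule did not use, most early risers were higher at the later month with the hosts averaged. With the hosts averaged, 21 of 31 members were higher at 5 months at an adjusted p under 0.05 (edgeR's quasi-likelihood test, Benjamini-Hochberg adjustment over all 14342 features), against 4.92% of all features tested, and 0 were lower, against 4.31%. All 31 fitted changes were above 0, from 0.03 to 0.97 on the log2 scale, with a median of 0.54 against -0.00 over all features. Among the later risers 185 of 331 were higher, with a median of 0.48. In 6 members the 5-month libraries lay wholly above the 3-month libraries in apple and also in hawthorn, against 0.251% of all features. With sequencing lane as a term of the model the count was again 21, and all 31 fitted changes were above 0. The share of all features called in that fit is not given here, so this count has no background.

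In apple alone, 10 members were higher at 5 than at 3 months, against 2.22% of all features, and the median change was 0.49 with 30 of 31 above 0. Among the later risers 61 of 331 were higher in apple, with a median of 0.41, and in 38 the months did not overlap. In 7 members all 5-month libraries were above all 3-month libraries, against 1.78% of all features. The count of members called fell to 6 without replicate 3 of the 3-month group and to 6 without replicate 1 of the 5-month group. The share of all features called in those fits is not given here, so these counts have no background. Within lane 5, the only lane that held apple libraries of both months (4 of 3 months and 3 of 5 months), the median was 0.53 and 30 of 31 were above 0, but 0 members were called and 18 had an unadjusted p under 0.05. That fit called 0.0237% of all features, so the count of 0 says nothing about the members. In hawthorn, 14 members were higher, against 3.65% of all features, with a median change of 0.59 and 30 of 31 above 0. The months did not overlap in 13 members, against 3.88% of all features. The later risers were close to this, with 131 of 331 higher, a median of 0.57 and no overlap in 120. The count of members called was 9 without replicate 1 of the 3-month group and 8 without replicate 1 of the 5-month group. These counts too are given without the share of all features called. Hawthorn libraries of 3 and 5 months shared lane 2 alone, with 1 library each, so no within-lane test could be made, and with lane as a term 3 members were called at a median of 0.66, where 0.795% of all features were called in either direction. Across the hosts, 6 members were called in both, 4 in apple only and 8 in hawthorn only. These counts do not show a difference between the hosts, which was tested separately.

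**Figure D3:**
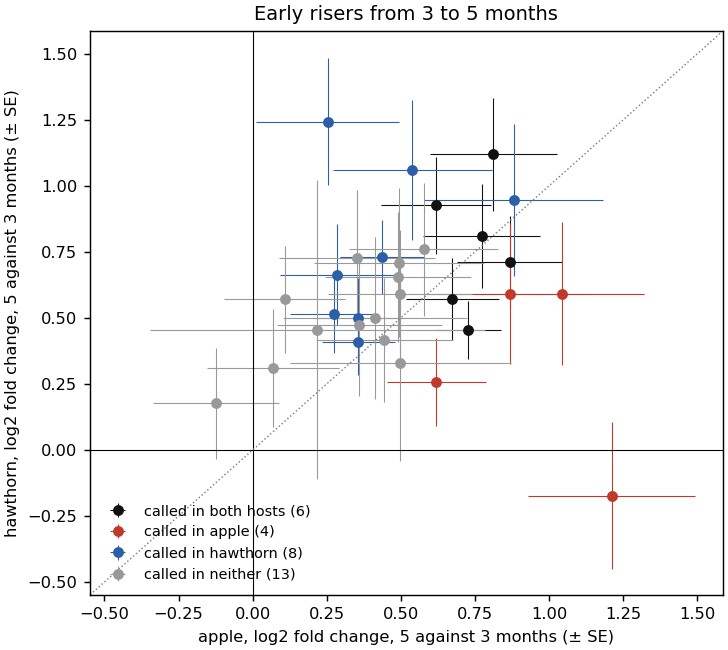
Log2 fold change from 3 to 5 months of the 31 early risers in apple (horizontal) and hawthorn (vertical), with bars of 1 SE and the line of equal change dotted. Black marks the 6 members called in both hosts, red the 4 called in apple, blue the 8 called in hawthorn and grey the 13 called in neither. Of the 31 members, 29 lie above 0 in both hosts.

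The feature gene18870 (1694 bp) had the largest fitted rise of the members with the hosts averaged. CPM values of single libraries are on the TMM scale. In apple it stood at 5.50, 4.19, 5.90, 5.99 and 6.80 CPM at 3 months and 11.2, 9.55, 9.13, 10.9 and 9.05 CPM at 5 months. In hawthorn it stood at 5.44, 5.37, 7.56, 7.74 and 6.61 CPM at 3 months and 15.4, 9.31, 14.4, 13.9 and 18.2 CPM at 5 months. All 5-month libraries were above all 3-month libraries in each host. The averaged change was 0.97 (SE 0.15, adjusted p = 3.1e-05, edgeR), with 0.81 (SE 0.21, adjusted p = 0.0209) in apple and 1.12 (SE 0.21, adjusted p = 0.00106) in hawthorn. The apple call was lost without replicate 2 of 3 months (adjusted p = 0.0621), without replicate 1 of 5 months (0.0609), with lane as a term (0.0924) and within lane 5 (0.158).

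In apple, gene7220 (3982 bp) had the largest change among the called members of at least 2 CPM whose months did not overlap. Its apple libraries were at 14.8, 20.6, 17.8, 11.9 and 17.4 CPM at 3 months and 33.6, 29.8, 30.5, 33.5 and 23.0 CPM at 5 months. The months did not overlap, and the change was 0.87 (SE 0.18, adjusted p = 0.00276, edgeR). Within lane 5 it was 0.89 with an adjusted p of 0.111. In hawthorn, where the 5-month libraries (29.1 to 38.4 CPM) also lay above those of 3 months (18.6 to 21.6 CPM), the change was 0.71 with an adjusted p of 0.0107.

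The feature gene8425 had a share of -0.00 at 3 months with the hosts averaged, from -0.26 in apple and 0.23 in hawthorn on the file total. Apple libraries were at 117, 116, 91.0, 88.7 and 91.4 CPM at 3 months and at 189, 148, 158, 188 and 151 CPM at 5 months. In hawthorn they were at 132, 104, 113, 122 and 135 CPM and then at 183, 190, 165, 142 and 149 CPM. The groups did not overlap in either host, and the changes were 0.73 (adjusted p = 0.000122, edgeR) in apple and 0.45 (adjusted p = 0.00915) in hawthorn. The feature was picked for its low share at 3 months, so the libraries that chose it are also the baseline here. That choice favours a rise from 3 to 5 months and small p-values. Apple pupae had a group mean of 102 ± 14.8 CPM (SD, n = 5) at 2 months and 146 ± 19.1 CPM at 4 months. Hawthorn pupae had 104 ± 12.6 CPM (n = 5) and 174 ± 0.826 CPM (n = 3).

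Low-abundance members also moved. In hawthorn, gene3087 (911 bp) went from 2.58, 1.79, 2.29, 2.30 and 1.56 CPM at 3 months to 4.97, 2.61, 3.85, 4.76 and 5.80 CPM at 5 months. The groups did not overlap, and the change was 1.06 (SE 0.26, adjusted p = 0.0110, edgeR), but with lane as a term it was 1.01 with an adjusted p of 0.150. In apple its change was 0.54 with an adjusted p of 0.258. The member gene3865 (6018 bp) had an averaged change of 0.91 (SE 0.21, adjusted p = 0.00299), the second largest after gene18870. Its apple libraries were at 1.56, 1.5, 1.37, 0.702 and 0.764 CPM at 3 months and at 2.62, 2.43, 1.85, 2.29 and 1.75 CPM at 5 months. In hawthorn the values were 1.19, 2.93, 2.11, 1.81 and 2.49 CPM and then 4.66, 3.03, 4.57, 4.69 and 3.47 CPM. All of its 5-month libraries were above all 3-month libraries of the same host.

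At the other end, with the hosts averaged, were members that had made most of their rise by 3 months. They were not all flat afterwards. The feature gene1175 had an averaged share of 0.77 at 3 months, from 1.02 in apple and 0.46 in hawthorn on the file total. From 3 to 5 months it changed by 1.21 in apple (adjusted p = 0.0099, edgeR) and by -0.17 in hawthorn (adjusted p = 0.778). The feature gene3778 had a share of 0.81 at 3 months, and its changes from 3 to 5 months were -0.12 in apple and 0.18 in hawthorn, with adjusted p-values of 0.805 and 0.674 (edgeR). As gene3778 was picked for its large share at 3 months, that choice favours a small change afterwards. Its libraries were at 9.21 to 16.9 CPM at 3 months and 8.74 to 15.2 CPM at 5 months in apple, which overlap widely. The abundant gene16088, with a share of 0.69 at 3 months, was called in none of the 6 comparisons of levels. Its libraries differed within groups by several fold, for example from 115 to 1180 CPM in hawthorn at 5 months and from 463 to 1440 CPM in apple at 5 months. The lowest share at 3 months was that of gene17029 (-0.18). Its apple mean was 1.64 ± 0.439 CPM (SD, n = 5) at 2 months and 1.5 ± 0.228 CPM at 3 months. Its hawthorn mean was 1.52 ± 0.589 CPM and then 1.48 ± 0.385 CPM, so that both steps were smaller than the SDs.

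**Figure D4:**
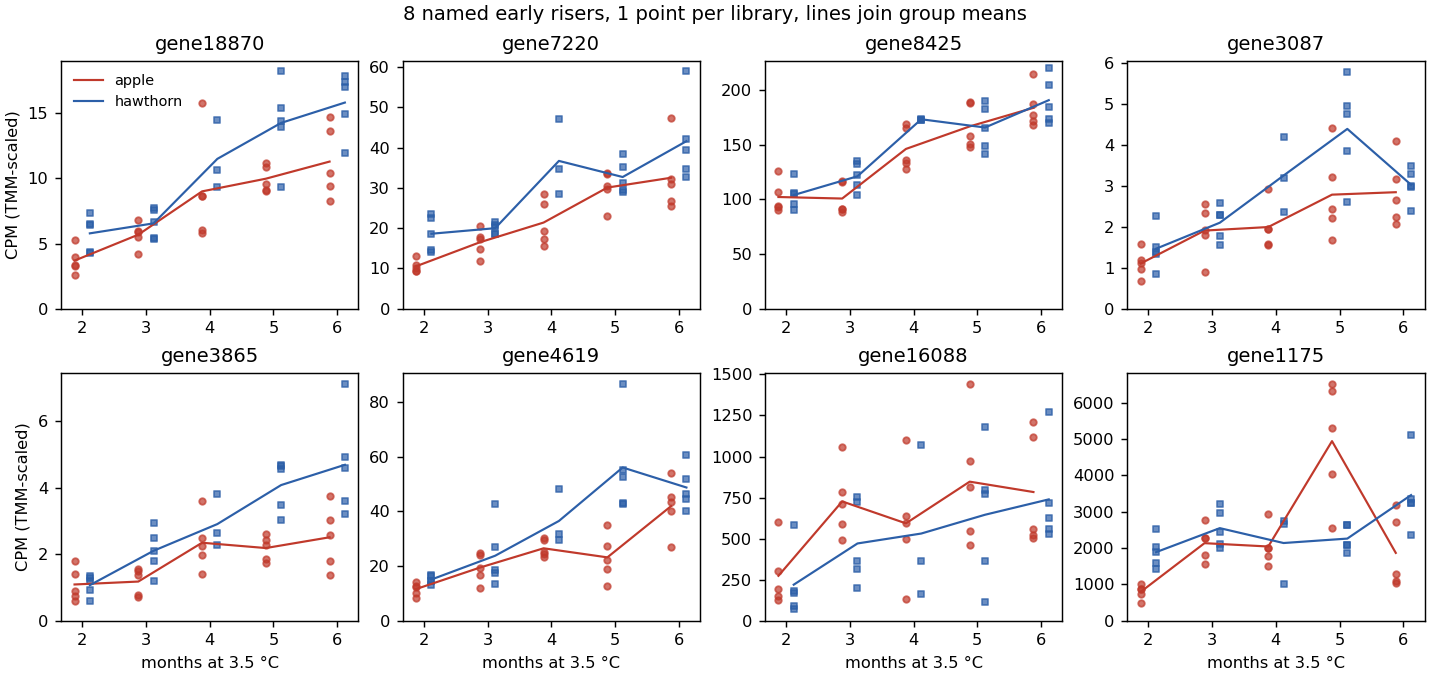
TMM-scaled CPM of 8 early risers against months at 3.5 °C, with 1 point per library, red circles for apple, blue squares for hawthorn and lines through the group means. All vertical axes start at 0. In gene18870 and gene8425 the 5-month points lie above all 3-month points of the same host, but gene8425 was picked for its low share at 3 months. The values of gene16088 spread from 115 to 1180 CPM within hawthorn at 5 months.

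Between the hosts, early risers, like the later risers, were on the whole lower in apple at the months not used by the rule. Few single members passed the test. At 3 months 0 of 31 members were called by edgeR (either direction, 0.0628% of all features called), with 6 at an unadjusted p under 0.05. DESeq2 also called 0, and its share over all features is not given here. The median difference (apple minus hawthorn) was -0.25 against -0.00 over all features, and 26 of 31 were below 0. Among the later risers the median was -0.15, with 229 of 331 below 0. CPM of the file total sets apple 0.10 log2 units higher at 3 months and 0.30 higher at 2 months than TMM scaling does. On the file total, the group means of 24 members were lower in apple at 3 months. At 5 months 5 members were lower in apple, against 6.94% of all features, and 1 was higher, against 6% of all features. The median was -0.35, 26 of 31 were below 0, and 23 members were below 0 at both months. Among the later risers 82 of 331 were lower and 9 higher at 5 months, with a median of -0.30 and 255 below 0. The libraries of the hosts did not overlap at 5 months in 6 members, all lower in apple, against 4.62% of all features. The counts of members lower at 5 months lay above these backgrounds by a few features.

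The mean slope of level on transcript length was -0.0280 ± 0.0705 in apple and 0.0782 ± 0.0468 in hawthorn at 5 months (SD, n = 5). With the slope as a term, 2 members were called (4.7% of all features) and the median difference was -0.18. The hosts shared no lane at 3 or at 5 months, so that lane and host cannot be told apart within a month. With lane as a term, carried by the other months, 0 members were called at 5 months (0.397% of all features), 10 had an unadjusted p under 0.05, and the median was -0.44. Leaving out single libraries gave 3 (without replicate 3 of apple) to 12 (without replicate 2 of apple) members called. For these fits the share of all features called is not given here, so the counts have no background.

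Of the members lower in apple at 5 months, gene4619 (1698 bp) differed most. Its libraries were at 27.2, 34.9, 12.8, 22.1 and 18.9 CPM in apple and 52.6, 86.7, 55.3, 42.8 and 42.9 CPM in hawthorn. The hosts did not overlap, and the difference was -1.27 (SE 0.24, adjusted p = 0.000547, edgeR). It was -0.86 with an adjusted p of 0.231 with lane as a term. At 3 months the same difference was -0.28 (adjusted p = 0.677), with hawthorn libraries from 13.3 to 42.8 CPM and apple libraries from 12 to 24.9 CPM. The second, gene3865, had the 5-month values given above, which did not overlap between the hosts, and a difference of -0.90 (SE 0.29, adjusted p = 0.0330). That call was lost in 9 of 18 alternatives, with differences of -0.99 to -0.51 over all 18.

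The member higher in apple was gene1175, the most abundant early riser. Its share at 4 months was 1.11 in apple but 0.28 in hawthorn, so it was early with the hosts averaged and not in hawthorn alone. Its expected counts were not whole in 47 libraries, so its level is uncertain. At 3 months its libraries were at 2280, 2270, 1810, 1550 and 2770 CPM in apple and at 1990, 2980, 2110, 3220 and 2450 CPM in hawthorn. At 5 months they were at 6520, 4030, 5300, 6320 and 2560 CPM in apple and at 2650, 2080, 1860, 2090 and 2630 CPM in hawthorn. Replicate 5 of apple at 5 months (2560 CPM) lay within the range of hawthorn, so the groups overlapped. The difference at 5 months was 1.13 (SE 0.28, adjusted p = 0.00654, edgeR), and the apple change from 3 to 5 months was 1.21 (SE 0.28, adjusted p = 0.0099). In apple at 6 months the group mean was back at 1867 ± 1006 CPM (SD, n = 5), below both the 5-month and the 3-month mean.

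The test of the difference itself asked whether the change from 3 to 5 months was unequal in the hosts. It called 0 of 31 members in edgeR (1.17% of all features called, either direction). DESeq2 called 1 member, but its share over all features is not given here, so that count has no background. In edgeR, 2 members had an unadjusted p under 0.05. These were gene1175, with a change larger by 1.38 in apple (SE 0.40, adjusted p = 0.0673), and gene4619, with a difference of -0.99 (SE 0.34, adjusted p = 0.120). The median over members was -0.15. Both named features were chosen after their values were seen.

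**Figure D5:**
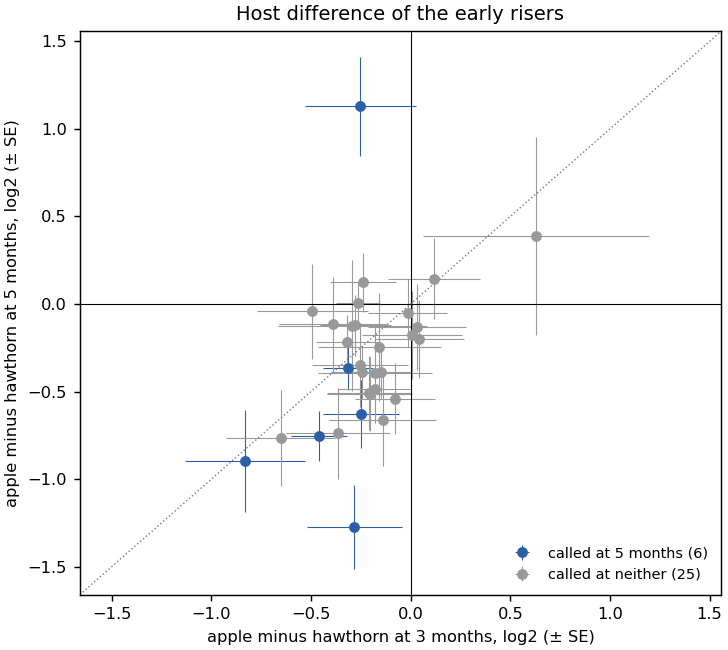
Apple minus hawthorn difference of the 31 early risers (log2, bars of 1 SE) at 3 months (horizontal) and 5 months (vertical), with the line of equal difference dotted. Blue marks the 6 members called at 5 months and grey the other 25. The blue point above 0 is gene1175 at 1.13, and the lowest is gene4619 at -1.27.

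Transcript length, which RSEM averages over the isoforms of a feature by their abundance, gave a readout beside the level. It is compared over 2 and 6 months, the contrast that chose the members, so it is a description with no test. Of the 31 members, 10 had more than 1 transcript and lengths that varied. Their change in length, with the hosts averaged, had a median size of 0.00416 on the log2 scale, against 0.00493 over 3741 features. The largest was -0.18 in gene23053, named after its value was seen.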

How the data were processed

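The authors deposited RSEM gene results for 50 libraries, with expected counts (estimated, need not be whole), TPM and transcript length per feature, per the file headers. Per the labels' protocols, STAR aligned the cleaned reads to the R. zephyria genome (a related species) and RSEM counted them. For versions, build and annotation, nothing is given in the sources used here. None (0) of the 29399 identifiers matched the R. pomonella gene table of 25184 genes, so names, positions and sequences are not used here. The members, lists and tests were chosen with earlier results of these data known.

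CPM for the rule used the deposited expected counts over the file total, as log2(group mean + 0.5). For tests, expected counts were rounded (library totals moved by at most 0.000438%), filtered with edgeR's filterByExpr (minimum count 10, minimum total 15), which kept all 31 members, and scaled by TMM. The 48 libraries were fitted with edgeR's quasi-likelihood model, 1 mean for each group, and features with a Benjamini-Hochberg adjusted p under 0.05 were called. Named members are those called with the largest changes, or the extremes of level, rise or share, with at most 2 per comparison and direction, and others named are said to be chosen later. Same-numbered replicates did not deviate together (5 of 30 pairs had r over 0.1), and no replicate pair looked like 1 library deposited more than once. Hawthorn replicate 3 at 6 months has the letter B in its title. Lanes were read from the run information in the deposited data. The deposited TPM, which sum to 999999 to 1000001 per library, and lengths were used to describe members. Transcript lengths were compared on the log2 scale with limma. The scripts were tested on simulated data. Software was R 4.3.3, edgeR 4.0.16, limma 3.58.1, DESeq2 1.42.0, Python 3.11.15 and matplotlib 3.10.9.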

Additional observations from a re-analysis of the deposited data

Results flagged for a closer look

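In 1 of 23 groups of values tested, 1 library stood apart from the others of its group. It was replicate 2 of hawthorn at 5 months for gene4619, at 86.7 CPM, against 42.8 to 55.3 CPM in the other 4 libraries. Chance flags about 1 in 20 groups.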

How the results depend on the processing

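Over the alternatives run for the tests of levels, the median change or difference of the members kept its sign in each comparison. Single members did change sign: for apple from 3 to 5 months, 28 to 31 of the 31 were above 0. The order of the hosts in the median shares at 3 and 5 months turned with the scaling. The number of members was 52 with no limit on mean CPM, 117 with share limits of 0.6 to 1.4, 99 with a rise of at least 0.6, and 24 to 58 when single libraries of 2, 4 or 6 months were left out. It was 48 without replicate 3 of apple at 2 months, and 54 and 58 without replicates 3 and 5 of hawthorn at 4 months. Of the 31 members, 7 were members in all 28 such runs, 25 with TMM-scaled totals, 14 with all 50 libraries (23 features in all) and 14 without the 6 single-index libraries of 6 months (32 features in all). For apple from 3 to 5 months, 4 members were called with only the groups compared, 0 within lane 5, and 6 to 11 without single libraries. For hawthorn the counts were 7 with all 50 libraries, 3 with lane as a term and 8 to 17 without single libraries, and for the averaged hosts 18 to 22. For the hosts at 5 months they were 3 with all 50 libraries, 0 with lane as a term, 2 with the length slope as a term and 3 to 12 without single libraries. At 3 months they were 0 throughout. For the host difference in change they were 1 with only the groups compared, 1 with DESeq2 and 0 to 2 without single libraries. A planned limma test of transcript length from 2 to 6 months called 0 of 10 members (0 to 1 without single libraries), against 162 of 3741 features. That test uses the contrast that chose the members and is not read further. The causes were not tested. With a replicate block, 10 members were called in apple, 15 in hawthorn, 20 with the hosts averaged, 0 and 6 between the hosts at 3 and 5 months, and 0 for the difference in change. The numbers do not pair the libraries. For most of these fits the share of all features called is not given, so the counts show only how the calls of members moved. The fit within lane 5, the rise of 0.6, and the membership runs without single libraries or single-index libraries were chosen after seeing the data.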

Other observations

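The 2 hawthorn libraries of 4 months that were left out gave values within and beyond the range of the other 3. On a scaling of all 50 libraries, gene7220 stood at 89.4 CPM in replicate 2 and 41.0 CPM in replicate 4. The feature gene1175 stood at 5570 and 4620 CPM, and gene3778 at 7.19 and 5.29 CPM.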
